A study of Mus musculus with 6 samples.

Results

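The genes described here are HIF target genes outside glycolysis, that is, genes that hypoxia-inducible factor is known to activate and that encode proteins other than glycolytic enzymes. A list of 33 gene symbols defined them, and 31 of the symbols matched a gene identifier in the count tables. The symbols Rora3 and Insig2b matched no symbol or synonym in the RefSeq gene table and have no value here, and Ero1l was found under its current symbol Ero1a. Angptl4, with 40 counts summed over the 6 libraries, and Car12, with 26, fell under the minimum of 60 counts and were left out of every comparison. The 29 remaining members were tested among 14069 tested genes of the 27179 in the tables.

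HIF is a heterodimer of an oxygen-regulated alpha subunit, such as HIF1A, and the stable subunit ARNT. In the presence of oxygen, prolyl hydroxylases of the EGLN family mark the alpha subunit, VHL targets it for degradation, and its target genes are transcribed at low levels. When the alpha subunit accumulates, the dimer binds hypoxia response elements, whose core is ACGTG or GCGTG, and activates genes for angiogenic signals, mitochondrial turnover, pH control and the hydroxylation and crosslinking of collagen. The clock activator CLOCK-BMAL1 binds the E-box CACGTG, which contains the first of these cores, and is repressed by the cryptochromes CRY1 and CRY2.

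The mRNA-seq experiment asked how CRY1 or CRY2 affects gene expression in fibroblasts without the other repressors of the clock. It used 3 lines of mouse embryonic fibroblasts (MEFs), with 2 libraries per line and no treatment reported beyond the making of the lines. CPN-/- is Cry1-/-, Cry2-/-, Per1-/-, Per2-/-, Nr1d1-/- and Nr1d2-/-, and CPN-/- CRY1 and CPN-/- CRY2 carry the same 6 knocked-out genes plus mouse Cry1 or Cry2 cDNA under a viral promoter. Each CRY-expressing line was made by infecting the parental CPN-/- line with virus, selected with blasticidin and grown from a single colony. A difference due to CRY cannot be told apart from one due to infection, selection or the colony. The adjusted p-values measure only the spread between the libraries of each line. The labels give no low-oxygen treatment, and all values are of cells in ordinary culture.

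The libraries held between 25957409 and 36106949 counts. CPM denotes counts scaled to a common library size by TMM, and "with CRY1" or "with CRY2" after a CPM value stands for the libraries of CPN-/- CRY1 or CPN-/- CRY2. Adjusted p-values (Benjamini-Hochberg, over the tested genes) come from the quasi-likelihood test of edgeR, and a gene was called lower or higher at an adjusted p under 0.05. Reads assigned to Cry1 were 125 and 115 in CPN-/-, 165 and 189.6 with CRY1, and 51.0 and 48.3 with CRY2 CPM, and those assigned to Cry2 were 136 and 129 in CPN-/-, 50.7 and 51.7 with CRY1, and 349 and 351 with CRY2 CPM; gene-level counts do not separate the knocked-out allele from the introduced cDNA. Summed markers of fibroblasts were at 11517 to 18305 CPM, although the fibroblast marker Thy1 had between 1 and 7 counts per library, and the summed macrophage, endothelial and epithelial markers were at most 2.37 CPM in every library, with Epcam at 0 counts throughout. In bulk samples, fewer cells of a type and less RNA per cell cannot be told apart. The CPN-/- libraries differed more from each other than the others did, with an SD of the log2 difference of 0.44 across genes against 0.23 in CPN-/- CRY1 and 0.24 in CPN-/- CRY2. In CPN-/- this difference followed transcript length, with a Spearman correlation of −0.70 over 12478 genes, so that short transcripts such as those of Mif, Fam162a and Ankrd37 were higher in replicate 2; genes are not independent replicates.

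RefSeq promoter windows of GRCm38.p6, running from 250 bases before to 50 bases after an annotated start, were found for 21 of the 29 tested members, that is, for all but Bnip3l, Kdm4b, Lox, Loxl2, Ndrg1, Pdgfb, Plod2 and Zfp395. The windows of 5 members that were called lower in both comparisons with CPN-/- and hold a hypoxia response core are shown, chosen by the lowest p, because these letters are what HIF and CLOCK-BMAL1 are known to bind. They are written 5′ to 3′ on the strand of the gene, with the cores ACGTG or GCGTG, the E-box, and the reverse complement of each core in capitals. The window of Bnip3 (chr7:138909457-138909756, minus strand) holds 1 CACGTG, at position −108 from the start, with GCGTG letters on both sides of it. The window of Ak4 (chr4:101419453-101419752, plus strand) holds 1 CACGTG at position −214. It is 1 of 4 windows of Ak4, shown because it has the most core matches. Its CACGTG counts as 2 of these matches, since it holds ACGTG on each strand. The other 3 windows hold GCGTG but neither CACGTG nor ACGTG. The windows of P4ha1 (chr10:59323046-59323345, plus strand), P4ha2 (chr11:54100674-54100973, plus strand) and Fam162a (chr16:36071512-36071811, minus strand) hold no CACGTG, and that of Fam162a has 5 GCGTG matches.
Bnip3: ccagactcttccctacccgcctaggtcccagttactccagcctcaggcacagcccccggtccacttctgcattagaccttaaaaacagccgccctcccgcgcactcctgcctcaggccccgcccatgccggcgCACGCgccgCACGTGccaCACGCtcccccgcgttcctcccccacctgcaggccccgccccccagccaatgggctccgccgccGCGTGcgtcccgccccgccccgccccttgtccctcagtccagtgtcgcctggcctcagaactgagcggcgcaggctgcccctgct
Ak4: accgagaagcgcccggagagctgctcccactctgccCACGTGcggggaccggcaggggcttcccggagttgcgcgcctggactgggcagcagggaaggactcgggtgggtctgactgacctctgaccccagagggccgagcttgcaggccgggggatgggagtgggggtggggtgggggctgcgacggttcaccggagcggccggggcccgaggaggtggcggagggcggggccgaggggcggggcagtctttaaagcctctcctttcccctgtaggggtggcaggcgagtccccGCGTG
P4ha1: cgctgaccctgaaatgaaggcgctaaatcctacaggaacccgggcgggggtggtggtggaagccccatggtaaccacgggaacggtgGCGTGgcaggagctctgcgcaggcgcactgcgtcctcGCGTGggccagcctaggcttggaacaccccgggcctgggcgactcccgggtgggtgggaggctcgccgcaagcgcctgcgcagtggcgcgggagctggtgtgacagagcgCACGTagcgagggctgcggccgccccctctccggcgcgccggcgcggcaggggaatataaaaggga
P4ha2: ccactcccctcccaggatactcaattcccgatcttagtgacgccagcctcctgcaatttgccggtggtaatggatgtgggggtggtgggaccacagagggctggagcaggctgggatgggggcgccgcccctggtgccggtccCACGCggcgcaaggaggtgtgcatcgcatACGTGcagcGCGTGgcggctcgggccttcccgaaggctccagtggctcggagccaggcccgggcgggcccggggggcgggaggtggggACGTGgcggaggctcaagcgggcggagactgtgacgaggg
Fam162a: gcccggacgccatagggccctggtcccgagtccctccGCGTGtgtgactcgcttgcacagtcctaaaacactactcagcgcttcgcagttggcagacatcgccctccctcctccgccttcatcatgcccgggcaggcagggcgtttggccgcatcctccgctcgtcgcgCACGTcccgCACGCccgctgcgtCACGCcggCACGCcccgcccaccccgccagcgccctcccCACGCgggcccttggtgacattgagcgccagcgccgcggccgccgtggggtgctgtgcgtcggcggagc

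Counted on both strands, ACGTG was present in the windows of 17 of the 21 tested members (81.0%) and in 29.1% of the windows of 10411 tested genes. GCGTG was present in 17 of 21 (81.0%), against 55.6% of all tested genes, and each of the 21 members had at least 1 of the 2 cores, against 67.0%. The E-box CACGTG, each copy of which is also counted as 2 overlapping ACGTG matches, was present in 3 of 21 (14.3%), against 11.6%, and the 3 members were Bnip3, Ak4 and Kdm4c. Genes with several annotated starts were counted as holding the letters if any window did. The median GC content was 67.6% in the members and 60.7% in all tested genes, and all of these letters contain CG. The members were listed as known HIF targets, so their letters are a description and not a test, and a match does not show that a factor is bound.

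**Figure D1:**
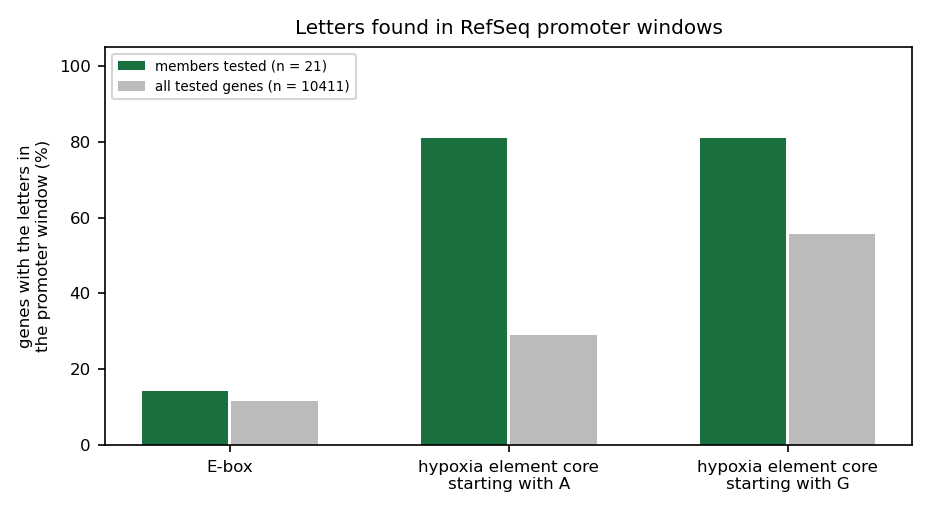
Share of genes (y axis, %) whose RefSeq promoter window holds the E-box CACGTG, the hypoxia response core ACGTG or the core GCGTG on either strand (x axis), for the 21 tested members with a window and the 10411 tested genes with one. The members and all genes are close for the E-box (14.3% and 11.6%) and far apart for ACGTG (81.0% and 29.1%).

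Most of the members were lower when CRY1 was expressed. Against CPN-/-, 21 of the 29 tested members were called in CPN-/- CRY1, of which 18 were lower and 3 higher, while 24.3% of all tested genes were called, 13.1% lower and 11.2% higher. The median log2 fold change of the members was −0.74, against −0.01 for all tested genes. In CPN-/- CRY2, 13 members were called against CPN-/-, all lower, while 6.66% of all tested genes were called, 4.08% lower and 2.58% higher. The median of the members was −0.36 on the log2 scale, against −0.01. Both comparisons use the same CPN-/- libraries, so that they are not independent of each other. The members were chosen with earlier results of these data known, so the counts of members called are a description. The strongest decreases were in mitochondrial genes (Bnip3, Fam162a, Ak4 and Higd1a) in both lines and in Ndrg1 and Ddit4 in CPN-/- CRY1, and Pdgfb was lowest in CPN-/- CRY2.

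**Figure D2:**
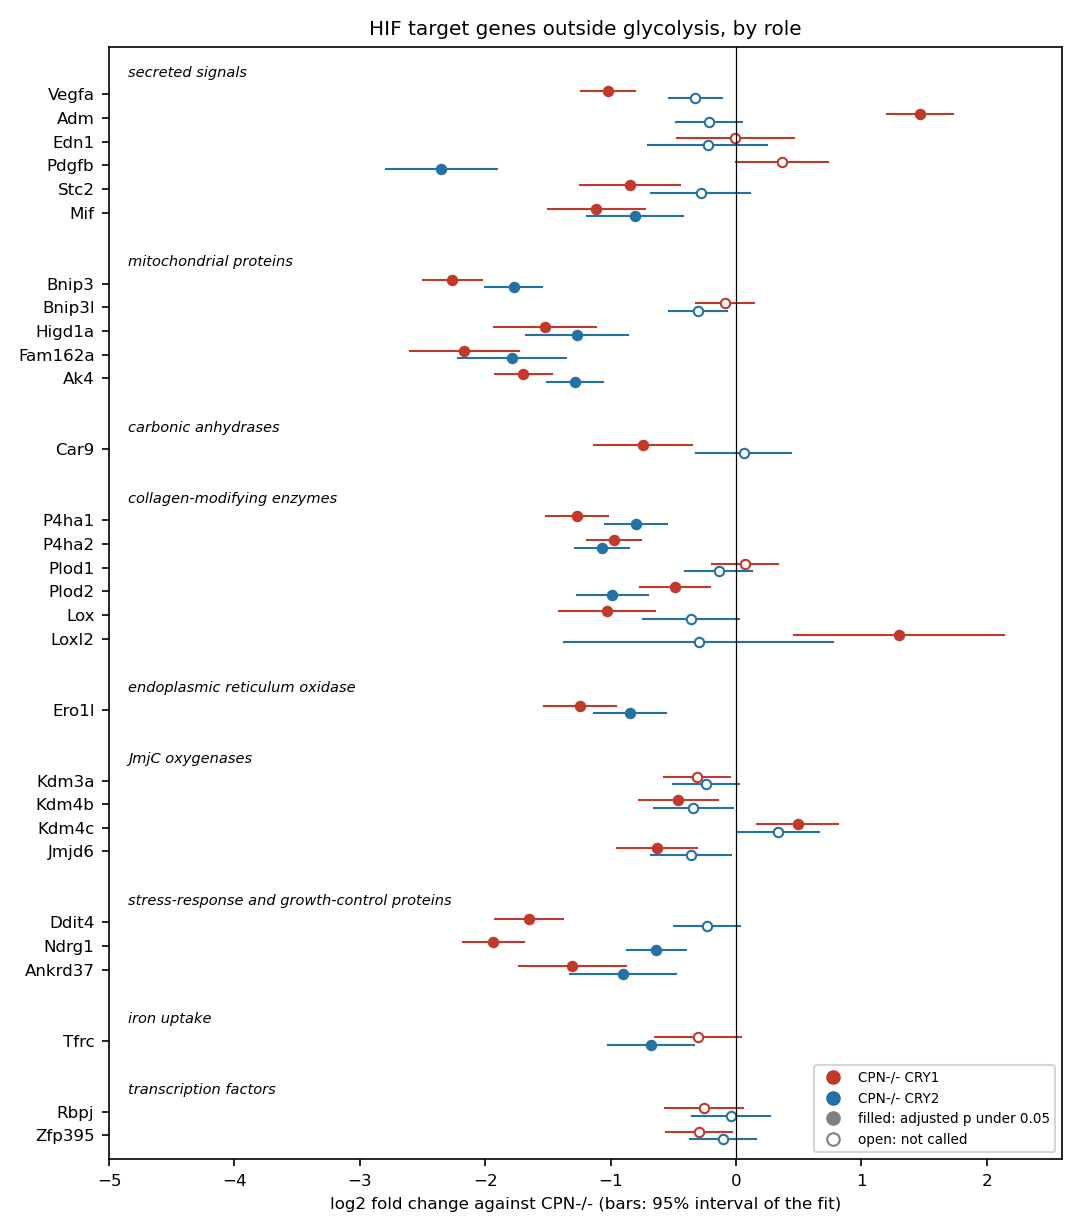
Log2 fold change against CPN-/- (x axis) of the 29 tested members, grouped by role (y axis), in CPN-/- CRY1 (red) and CPN-/- CRY2 (blue), with bars for the 95% interval of the fit and filled points for an adjusted p under 0.05. Filled points lie left of 0 in both lines for Bnip3 (−2.26 and −1.77), Adm is right of 0 as a red filled point (1.47) and Pdgfb is left of 0 as a blue one (−2.35).

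In the mitochondrial group, 4 of the 5 genes were called lower in each CRY-expressing line. The share of all tested genes called lower was 13.1% under CRY1 and 4.08% under CRY2. The group had a median log2 fold change of −1.70 under CRY1 and −1.28 under CRY2. Bnip3 (gene 12176, chr7:138890836-138909506), an outer-membrane receptor for the removal of mitochondria by autophagy, was at 163 and 179 CPM in CPN-/-, 35.3 and 35.9 with CRY1, and 50.2 and 49.8 with CRY2. All 4 libraries with CRY were far below both CPN-/- libraries. It was 4.80-fold lower in CPN-/- CRY1 (log2 fold change −2.26 ± 0.10 SE, adjusted p = 8.82e-05) and 3.42-fold lower in CPN-/- CRY2 (log2 fold change −1.77 ± 0.10 SE, adjusted p = 0.000314). Its paralog Bnip3l, which serves the same process, was at 73.7 and 70.3 CPM in CPN-/-, 70.0 and 65.3 with CRY1, and 60.6 and 56.3 with CRY2 and was called in neither line, with log2 fold changes of −0.09 and −0.30. The Bnip3 transcript shares sequence with 5 other annotated genes and the Bnip3l transcript with 1, matching at 95% or more along 150 bases or longer. Reads could therefore be split between them. Among the 5, Gm45507 overlaps Bnip3 on the opposite strand over 504 bases.

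Fam162a (gene 70186, chr16:36043844-36071561), a mitochondrial protein linked to cell death under hypoxia, was at 218 and 321 CPM in CPN-/-, 59.0 and 61.0 with CRY1, and 75.1 and 80.8 with CRY2. The CPN-/- libraries differed by more than in the other lines, yet both were above every library with CRY. Its log2 fold change was −2.17 ± 0.18 (SE, adjusted p = 0.000685) in CPN-/- CRY1 and −1.79 ± 0.18 (SE, adjusted p = 0.00264) in CPN-/- CRY2. Fam162a was at −1.76 (adjusted p = 1.06e-06) and −1.51 (adjusted p = 4.2e-06) with the trend on transcript length removed. Ak4, an adenylate kinase of the mitochondrial matrix, had tightly grouped libraries at 71.9 and 73.5 CPM in CPN-/-, 22.4 and 22.5 with CRY1, and 30.8 and 28.9 with CRY2. It was 3.24-fold lower in CPN-/- CRY1 (log2 fold change −1.70 ± 0.10 SE, adjusted p = 0.000209) and 2.43-fold lower in CPN-/- CRY2 (log2 fold change −1.28 ± 0.09 SE, adjusted p = 0.000861). Higd1a, a small inner-membrane protein of the respiratory chain, was at 112 and 160.1 CPM in CPN-/-, 46.3 and 48.1 with CRY1, and 54.7 and 58.0 with CRY2, with the same order of the lines. Its decrease was −1.52 ± 0.17 (SE, adjusted p = 0.00198) in CPN-/- CRY1 and −1.27 ± 0.17 (SE, adjusted p = 0.00743) in CPN-/- CRY2 on the log2 scale. The Fam162a transcript overlaps Wdr5b on the opposite strand over 168 bases, and those of Ak4 and Higd1a share sequence with 1 and 2 other genes. Of the 2 that match Higd1a, Gm47112 overlaps it on the opposite strand over 683 bases.

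Among the stress-response and growth-control genes, all 3 were lower in CPN-/- CRY1 (all tested genes 13.1%) and 2 were lower in CPN-/- CRY2 (4.08%). Ndrg1 (gene 17988, chr15:66929318-66969641), a hypoxia-inducible protein of cell differentiation and stress responses, was at 133 and 144 CPM in CPN-/-, 38.0 and 34.6 with CRY1, and 88.1 and 90.7 with CRY2. The lines did not overlap, with CPN-/- CRY2 between the others. It was 3.82-fold lower in CPN-/- CRY1 (log2 fold change −1.93 ± 0.10 SE, adjusted p = 0.000171) and 1.55-fold lower in CPN-/- CRY2 (log2 fold change −0.64 ± 0.10 SE, adjusted p = 0.0123). The Ndrg1 transcript overlaps Gm17035 on the opposite strand over 419 bases and shares sequence with it, and it overlaps Gm2895 over 137. Chromosome 15 as a whole was shifted in CPN-/- CRY1, with a median log2 fold change of −0.36 over 530 tested genes, and in CPN-/- CRY2 this median was 0.05. With each chromosome's median removed, Ndrg1 was at −1.57 (adjusted p = 0.000313) in CPN-/- CRY1 and at −0.68 (adjusted p = 0.00956) in CPN-/- CRY2.

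Ddit4, which inhibits the growth-promoting kinase complex mTORC1, was at 138 and 152 CPM in CPN-/-, 49.5 and 42.6 with CRY1, and 121 and 126 with CRY2. Only the CPN-/- CRY1 libraries stood far below the rest. It was 3.14-fold lower there (log2 fold change −1.65 ± 0.11 SE, adjusted p = 0.000375) and was not called in CPN-/- CRY2 (log2 fold change −0.23 ± 0.11 SE, adjusted p = 0.252), where the 95% interval of the log2 fold change was −0.50 to 0.03. Ankrd37, an ankyrin repeat protein, was at 9.97 and 13.6 CPM in CPN-/-, 4.81 and 4.70 with CRY1, and 5.99 and 6.63 with CRY2. Although its CPN-/- libraries were spread, they stayed above all others. The log2 fold change was −1.30 ± 0.18 (SE, adjusted p = 0.00425) in CPN-/- CRY1 and −0.90 ± 0.18 (SE, adjusted p = 0.0322) in CPN-/- CRY2. Ankrd37 was at −0.96 (adjusted p = 0.000314) and −0.65 (adjusted p = 0.00637) with the length trend removed. Its transcript overlaps Lrp2bp on the opposite strand over 349 bases, and the strand setting of the counting is not given in the sources used here.

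The secreted signals did not move together. In CPN-/- CRY1, 3 of the 6 tested signals were lower and 1 was higher, against 13.1% and 11.2% of all tested genes. In CPN-/- CRY2, 2 were lower, against 4.08%. Vegfa, the main angiogenic growth factor induced by HIF, was at 83.1 and 86.3 CPM in CPN-/-, 41.0 and 42.3 with CRY1, and 67.9 and 67.5 with CRY2. The CPN-/- CRY1 libraries were the lowest and the CPN-/- CRY2 libraries lay between them and CPN-/-. Vegfa was 2.03-fold lower in CPN-/- CRY1 (log2 fold change −1.02 ± 0.09 SE, adjusted p = 0.000755), whereas the difference in CPN-/- CRY2 did not pass the test (log2 fold change −0.32 ± 0.09 SE, adjusted p = 0.0899). Adm (gene 11535, chr7:110627657-110629820), which encodes the vasodilator peptide adrenomedullin, was at 31.4 and 37.0 CPM in CPN-/-, 94.0 and 94.8 with CRY1, and 29.1 and 29.8 with CRY2. It was thus highest in CPN-/- CRY1 by a wide margin, 2.76-fold higher than in CPN-/- (log2 fold change 1.47 ± 0.11 SE, adjusted p = 0.000482), and was not called in CPN-/- CRY2 (log2 fold change −0.22 ± 0.11 SE, adjusted p = 0.272).

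Pdgfb (gene 18591, chr15:79995865-80024614), a growth factor for mesenchymal cells, was at 8.52 and 10.7 CPM in CPN-/-, 13.3 and 11.5 with CRY1, and 1.87 and 1.89 with CRY2. Both CPN-/- CRY2 libraries, with 51 counts each, were far below the rest. It was 5.10-fold lower in CPN-/- CRY2 (log2 fold change −2.35 ± 0.19 SE, adjusted p = 0.00107). In CPN-/- CRY1 it was not called (log2 fold change 0.37 ± 0.15 SE, adjusted p = 0.126), but with each chromosome's median removed it was called higher, at 0.73 (adjusted p = 0.0209), since it lies on chromosome 15. Mif, a cytokine made by many cell types, was at 556 and 764 CPM in CPN-/-, 301 and 309 with CRY1, and 356 and 401 with CRY2. All libraries with CRY were below CPN-/-, and the log2 fold change was −1.11 ± 0.16 (SE, adjusted p = 0.005) in CPN-/- CRY1 and −0.80 ± 0.16 (SE, adjusted p = 0.0338) in CPN-/- CRY2. With the length trend removed these values were smaller, at −0.67 (adjusted p = 0.000125) and −0.52 (adjusted p = 0.0011), both still called. The Mif transcript shares sequence with 5 other annotated genes. Stc2, a secreted glycoprotein, was at 7.73 and 6.18 CPM in CPN-/-, 3.87 and 3.89 with CRY1, and 5.29 and 6.19 with CRY2 and was called in CPN-/- CRY1 (log2 fold change −0.84 ± 0.17 SE, adjusted p = 0.0144) but not in CPN-/- CRY2 (log2 fold change −0.28 ± 0.17 SE, adjusted p = 0.328). The lines with CRY were not called different from each other for this gene (log2 fold change −0.56 ± 0.17 SE, adjusted p = 0.0705). Edn1, which encodes a vasoconstrictor peptide, ranged from 4.92 to 7.59 CPM with overlapping lines and was not called.

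**Figure D3:**
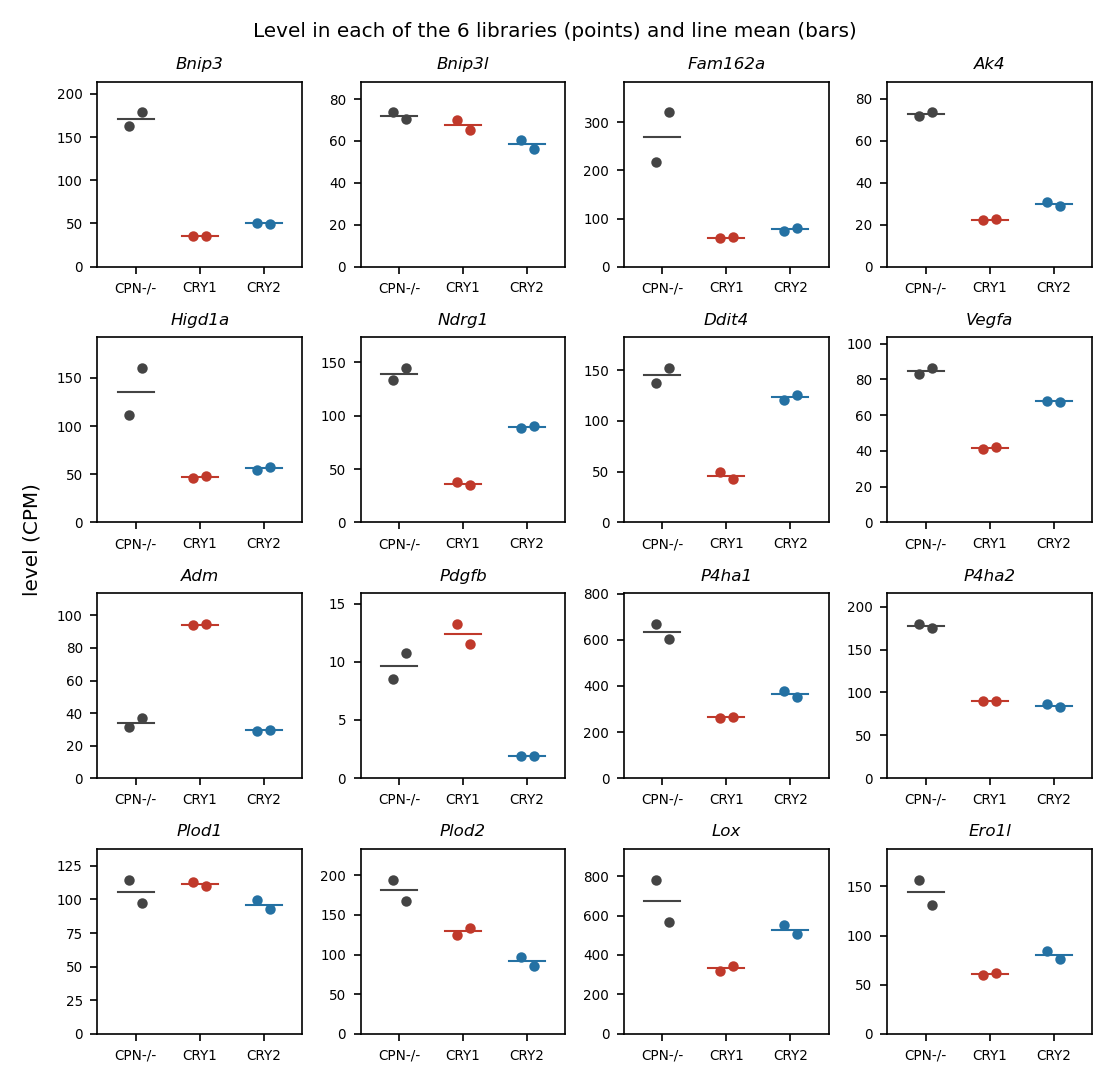
Level in CPM (y axis, linear, from 0) of 16 members in each library of CPN-/-, CPN-/- CRY1 and CPN-/- CRY2 (x axis), with a point per library and a bar for the mean of the 2 libraries. Bnip3 falls from 163 and 179 CPM to 35.3 and 35.9 in CPN-/- CRY1, Bnip3l stays between 56.3 and 73.7, and Adm is near 94 CPM only in CPN-/- CRY1.

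HIF also induces enzymes that modify collagen. Here 4 of 6 fell and 1 rose in CPN-/- CRY1, against 13.1% and 11.2% of all tested genes. In CPN-/- CRY2, 3 fell, against 4.08%. P4ha1 and P4ha2, catalytic subunits of collagen prolyl 4-hydroxylase, were lower in both lines. P4ha1 was at 669 and 602 CPM in CPN-/-, 260.1 and 267 with CRY1, and 379 and 353 with CRY2, with no overlap between the lines. It was 2.41-fold lower in CPN-/- CRY1 (log2 fold change −1.27 ± 0.11 SE, adjusted p = 0.000592) and 1.74-fold lower in CPN-/- CRY2 (log2 fold change −0.80 ± 0.10 SE, adjusted p = 0.00629). P4ha2 was at 179.9 and 175 CPM in CPN-/-, 90.1 and 90.4 with CRY1, and 86.3 and 82.6 with CRY2. It was 1.96-fold lower in CPN-/- CRY1 (log2 fold change −0.97 ± 0.09 SE, adjusted p = 0.00088) and 2.10-fold lower in CPN-/- CRY2 (log2 fold change −1.07 ± 0.09 SE, adjusted p = 0.00124), and the libraries with CRY1 and CRY2 were close to each other.

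The lysyl hydroxylases Plod1 and Plod2 differed. Plod2, which acts on the telopeptides of collagen, was at 195 and 168 CPM in CPN-/-, 125 and 134 with CRY1, and 97.4 and 85.6 with CRY2, lowest in CPN-/- CRY2. Its log2 fold change was −0.49 ± 0.12 (SE, adjusted p = 0.0275) in CPN-/- CRY1 and −0.99 ± 0.12 (SE, adjusted p = 0.00491) in CPN-/- CRY2. The Plod2 transcript overlaps Gm38391 on the opposite strand over 346 bases. Plod1, which acts on the helix, was between 92.7 and 115 CPM in the 6 libraries and was called in neither line. Lox, the lysyl oxidase that crosslinks collagen and elastin, was at 782 and 569 CPM in CPN-/-, 318 and 346 with CRY1, and 549.6 and 505 with CRY2. Its CPN-/- libraries were spread, those of CPN-/- CRY1 were the lowest, and it was called in CPN-/- CRY1 (log2 fold change −1.03 ± 0.16 SE, adjusted p = 0.00668) but not in CPN-/- CRY2 (log2 fold change −0.36 ± 0.16 SE, adjusted p = 0.226). The related Loxl2 was barely detected, with 10 and 11 counts in CPN-/-, 26 and 34 with CRY1, and 8 in each library with CRY2. It was called higher in CPN-/- CRY1 (log2 fold change 1.30 ± 0.35 SE, adjusted p = 0.0389), but this call was lost with DESeq2's Wald test (adjusted p = 0.104), and its longest transcript shares sequence with 126 other genes.

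Ero1l (gene 50527), which re-oxidizes protein disulfide isomerase in the endoplasmic reticulum, was at 157 and 131 CPM in CPN-/-, 59.9 and 61.7 with CRY1, and 84.5 and 75.8 with CRY2, with both CRY-expressing lines below CPN-/-. It was 2.37-fold lower in CPN-/- CRY1 (log2 fold change −1.24 ± 0.12 SE, adjusted p = 0.00118) and 1.80-fold lower in CPN-/- CRY2 (log2 fold change −0.85 ± 0.12 SE, adjusted p = 0.0093). Car9, a carbonic anhydrase of the cell surface that takes part in pH control, was at 3.87 and 4.14 CPM in CPN-/-, 2.27 and 2.53 with CRY1, and 3.89 and 4.45 with CRY2. This gene was low, with 78 to 123 counts per library, and only the CPN-/- CRY1 libraries were below the others (log2 fold change −0.74 ± 0.17 SE, adjusted p = 0.0201). The Car9 transcript overlaps Gm12454 on the opposite strand over 214 bases. In CPN-/- CRY2 its log2 fold change was 0.06, with a 95% interval of −0.32 to 0.44.

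The JmjC oxygenases had smaller changes in both directions. Jmjd6, a lysyl hydroxylase of nuclear proteins, was at 93.2 and 118 CPM in CPN-/-, 70.9 and 65.1 with CRY1, and 78.5 and 85.8 with CRY2 and was lower in CPN-/- CRY1 (log2 fold change −0.63 ± 0.13 SE, adjusted p = 0.0177). With the length trend removed Jmjd6 was at −0.41 (adjusted p = 0.002). Its transcript overlaps Mettl23 on the opposite strand over 172 bases and Gm27401 on the same strand over 173. Kdm4b, a histone H3 lysine demethylase, was at 42.2 and 34.8 CPM in CPN-/-, 29.1 and 27.0 with CRY1, and 28.3 and 32.5 with CRY2, and its call in CPN-/- CRY1 was close to the threshold (log2 fold change −0.46 ± 0.13 SE, adjusted p = 0.0462). With the replicate number as a block it was lost (adjusted p = 0.0517), although the log2 fold change stayed at −0.46. The related Kdm4c went the other way, at 34.1 and 27.4 CPM in CPN-/-, 41.2 and 45.3 with CRY1, and 40.9 and 36.9 with CRY2, and was higher in CPN-/- CRY1 (log2 fold change 0.49 ± 0.14 SE, adjusted p = 0.0404). With each chromosome's median removed, Kdm4b (−0.40, adjusted p = 0.0752), Kdm4c (0.47, adjusted p = 0.0514) and Loxl2 (1.19, adjusted p = 0.056) were no longer called in CPN-/- CRY1, with log2 fold changes little smaller than before. Kdm3a, another histone demethylase, ranged from 68.0 to 91.6 CPM and was not called, and no oxygenase was called in CPN-/- CRY2. With the length trend removed, Kdm3a was called lower in CPN-/- CRY1 (−0.40, adjusted p = 0.00127) and CPN-/- CRY2 (−0.31, adjusted p = 0.0108). In CPN-/- CRY2 that fit also called Kdm4b lower (−0.40, adjusted p = 0.018) and Kdm4c higher (0.31, adjusted p = 0.0437).

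Tfrc, the transferrin receptor for iron uptake, was at 259 and 212 CPM in CPN-/-, 175 and 206 with CRY1, and 158 and 136 with CRY2. It was lowest in CPN-/- CRY2, the line in which it was called (log2 fold change −0.68 ± 0.15 SE, adjusted p = 0.0421), and not called in CPN-/- CRY1 (log2 fold change −0.30 ± 0.14 SE, adjusted p = 0.161). Tfrc and Fam162a lie on chromosome 16, whose 420 tested genes had a median log2 fold change of 0.27 in CPN-/- CRY1, against −0.09 in CPN-/- CRY2. With these medians removed, Tfrc was at −0.58 in CPN-/- CRY1 (adjusted p = 0.0351), its call in CPN-/- CRY2 was lost (−0.59, adjusted p = 0.0672), and Fam162a was at −2.44 and −1.70. The transcription factors Rbpj, the effector of Notch signalling, and Zfp395 were called in neither line, but with chromosome medians removed Zfp395 was called lower in CPN-/- CRY1, at −0.40 (adjusted p = 0.0451). Rbpj ranged from 275 to 368 CPM and Zfp395 from 18.2 to 24.5 CPM. The Rbpj transcript shares sequence with the pseudogene Rbpj-ps3.

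The members covered a wide range of levels. Per kilobase of transcript, the mean CPM in CPN-/- was 1213 for Mif, 376 for Fam162a, 157 for P4ha1, 143 for Lox and 97.3 for Bnip3, and it was 3.27 for Pdgfb and lower still for Edn1, Car9, Stc2 and Loxl2.

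A direct test of CPN-/- CRY1 against CPN-/- CRY2 asked which members differed between the lines with CRY. Of the 29 members, 12 passed it, of which 8 had the lower and 4 the higher level in CPN-/- CRY1, while 16.3% of all tested genes were called, 8.57% lower and 7.72% higher. The largest difference was in Pdgfb, which was 6.57-fold higher in CPN-/- CRY1 (log2 fold change 2.71 ± 0.18 SE, adjusted p = 0.000391). Adm was 3.21-fold higher (log2 fold change 1.68 ± 0.11 SE, adjusted p = 0.000366). Loxl2 and Plod2 were the other 2 that were higher in CPN-/- CRY1, with 1.60 and 0.50 on the log2 scale. The call of Loxl2 was lost with DESeq2's Wald test (1.63, adjusted p = 0.0647).

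On the lower side, Ddit4 was 2.68-fold lower in the CRY1 line (log2 fold change −1.42 ± 0.11 SE, adjusted p = 0.000642) and Ndrg1 2.46-fold lower (log2 fold change −1.30 ± 0.10 SE, adjusted p = 0.000545). The chromosome 15 median of this comparison was −0.43, and with it removed Ndrg1 was at −0.89 (adjusted p = 0.00241). Smaller differences in the same direction were called for Car9 (−0.80), Vegfa (−0.70), Lox (−0.67), Bnip3 (−0.49), P4ha1 (−0.47) and Ak4 (−0.41), in log2 units. With chromosome medians removed, the calls of P4ha1 (−0.32, adjusted p = 0.108) and Plod2 (0.44, adjusted p = 0.0651) were lost and Fam162a was called lower, at −0.74 (adjusted p = 0.0461). Fam162a was at −0.38 in the reported fit and, with the length trend removed, at −0.25 (adjusted p = 0.0289). P4ha2 did not pass the test in this comparison, with a 95% interval of −0.12 to 0.31, and the intervals of Higd1a (−0.66 to 0.15), Mif (−0.69 to 0.07) and Fam162a (−0.80 to 0.05) reached farther below 0.

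**Figure D4:**
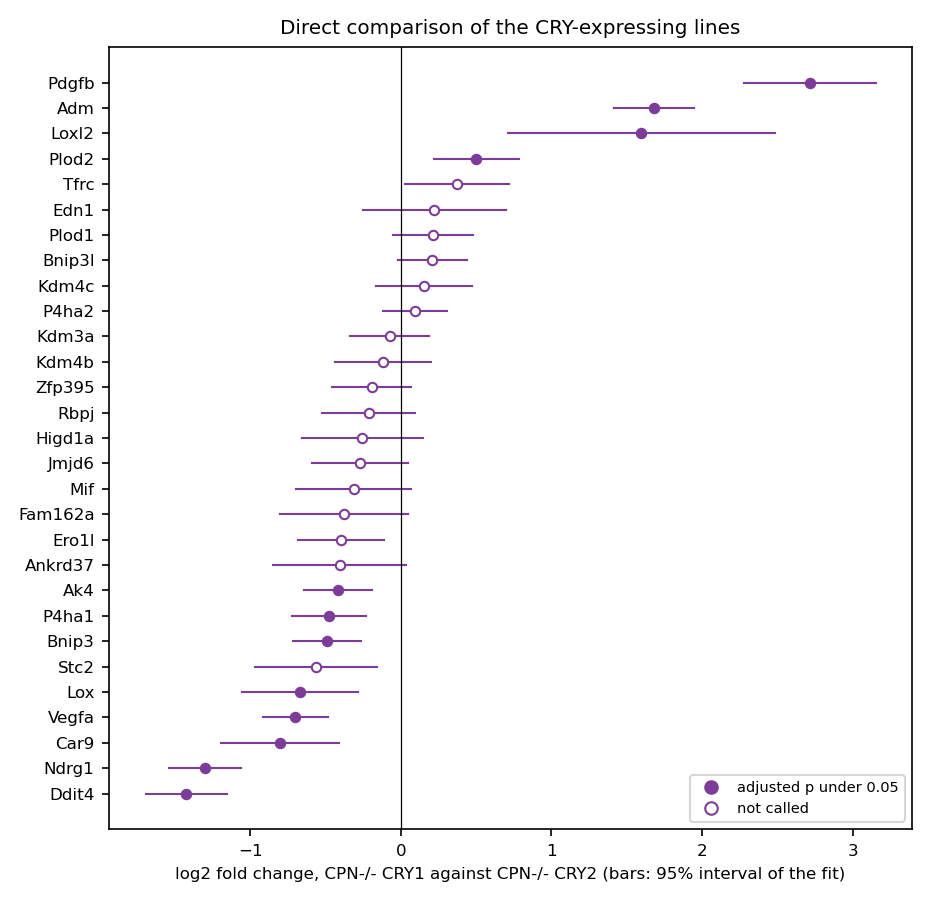
Log2 fold change of CPN-/- CRY1 against CPN-/- CRY2 (x axis) for the 29 tested members in order of size (y axis), with bars for the 95% interval of the fit and filled points for an adjusted p under 0.05. Pdgfb (2.71), Adm (1.68), Loxl2 (1.60) and Plod2 (0.50) are filled on the right, and Ddit4 (−1.42) and Ndrg1 (−1.30) lie farthest to the left.

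Other lists of the pathway gave the context. They were written with earlier results of these data known, so their counts are a description and not a test. All tested genes were called at 24.3% in CPN-/- CRY1 and 6.66% in CPN-/- CRY2, which is the background for each count here. Of 26 further tested HIF targets outside glycolysis, 14 fell and 3 rose in CPN-/- CRY1, with a median log2 fold change of −0.47, and 9 fell and none rose in CPN-/- CRY2, with a median of −0.36. Vldlr, a lipoprotein receptor, was at 11.03 and 8.02 CPM in CPN-/-, 0.36 and 0.357 with CRY1, and 0.478 and 0.296 with CRY2. With 8 to 13 counts in each library with CRY, it had the lowest fold change of the list in both lines, at −4.72 (adjusted p = 0.000253) and −4.61 (adjusted p = 0.000542). The clock-linked repressor Bhlhe40 was at 82.6 and 80.0 CPM in CPN-/-, 19.5 and 15.2 with CRY1, and 37.4 and 35.7 with CRY2 and was lower in both lines, with log2 fold changes of −2.22 and −1.15. Efna3, an ephrin, was at 5.28 and 4.72 CPM in CPN-/-, 4.07 and 3.86 with CRY1, and 1.69 and 1.89 with CRY2 and was called in CPN-/- CRY2 (−1.48, adjusted p = 0.00371) but not in CPN-/- CRY1 (−0.34, adjusted p = 0.139), with a called difference between these lines (1.15, adjusted p = 0.00619).

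Of 19 tested glycolytic HIF targets, 14 were lower in CPN-/- CRY1 and 13 in CPN-/- CRY2, and none was higher, with medians of −0.72 and −0.71. In the direct comparison of the lines with CRY, 2 of these 19 were lower in CPN-/- CRY1 and 1 was higher, a share (15.8%) near the 16.3% of all tested genes. The 4 glycolytic genes with the lowest p, taking for each gene the smaller p of its comparisons with CPN-/-, were Pdk1, Pfkl, Ldha and Gpi1, whose log2 fold changes against CPN-/- were −2.49, −1.78, −1.80 and −0.84 with CRY1 expressed, and with CRY2 expressed −1.42, −1.31, −1.25 and −0.95.

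Of 8 tested HIF subunits and oxygen sensors, 3 fell and 1 rose in CPN-/- CRY1 (all tested genes 24.3% called), while 2 fell in CPN-/- CRY2 (6.66%). The prolyl hydroxylase gene Egln3, itself a HIF target and also in the first of these lists, was at 31.2 and 30.0 CPM in CPN-/-, 13.6 and 13.9 with CRY1, and 10.5 and 9.41 with CRY2, with log2 fold changes of −1.16 and −1.62. Egln1, likewise in both lists, had −0.76 and −0.53, and both genes were called in each line. Hif1an, the asparaginyl hydroxylase of HIF, was higher in CPN-/- CRY1 (0.66, adjusted p = 0.0142) and Vhl was lower there (−0.41, adjusted p = 0.0343). Hif1a mRNA did not pass the test in CPN-/- CRY1 (−0.41, adjusted p = 0.0703) or in CPN-/- CRY2 (0.11, adjusted p = 0.633), but was lower in the direct comparison of CPN-/- CRY1 with CPN-/- CRY2 (−0.52, adjusted p = 0.0458). Protein levels of HIF1A were not analysed here.

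Of 12 tested genes of collagen modification and folding outside the members, 1 fell and 1 rose in CPN-/- CRY1, with a median of 0.08. That share (16.7%) was below the 24.3% of all tested genes. None of the 12 was called in CPN-/- CRY2, with a median of 0.01. P4hb, the protein disulfide isomerase that is the common subunit of the prolyl 4-hydroxylases, was at 1055 and 1112 CPM in CPN-/-, 627 and 617 with CRY1, and 938 and 890.4 with CRY2 and fell in CPN-/- CRY1 (−0.80, adjusted p = 0.00271). Loxl1, a lysyl oxidase, was at 195 and 182 CPM in CPN-/-, 271 and 270.0 with CRY1, and 202 and 212 with CRY2 and was higher in CPN-/- CRY1 (0.52, adjusted p = 0.0103). Loxl4 and P4ha3 were not called in either line. P4ha3, a catalytic subunit like P4ha1 and P4ha2, was not lower. Its log2 fold change was 0.40 (adjusted p = 0.128) in CPN-/- CRY1 and 0.54 (adjusted p = 0.122) in CPN-/- CRY2.

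With 2 libraries per line, several calls were lost when 1 of the libraries with CRY was left out. In CPN-/- CRY1 against CPN-/-, the calls of Vegfa, Adm, Bnip3, Higd1a, Fam162a, Ak4, P4ha1, P4ha2, Ero1l, Ddit4 and Ndrg1 were kept when any 1 of the 6 libraries was left out. Without either CPN-/- CRY1 library, those of Ankrd37 (adjusted p up to 0.0552), Mif (0.0661), Lox (0.0816) and Stc2 (0.116) were lost. Without any 1 of the 4 libraries with CRY, those of Car9 (adjusted p up to 0.157), Jmjd6 (0.164), Kdm4b (0.277), Kdm4c (0.252), Plod2 (0.202) and Loxl2 (0.235) were lost, and that of Loxl2 also without replicate 1 of CPN-/-.

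In CPN-/- CRY2 against CPN-/-, the calls of Pdgfb, Bnip3, Fam162a, Ak4 and P4ha2 were kept without any 1 library. Without either CPN-/- CRY2 library, those of Ero1l (adjusted p up to 0.137), Higd1a (0.0967), P4ha1 (0.124) and Plod2 (0.0818) were lost, and without any 1 of the 4 libraries with CRY, those of Ankrd37 (0.269), Mif (0.295), Ndrg1 (0.179) and Tfrc (0.332). In the direct comparison, the calls of Adm, Pdgfb, Ddit4 and Ndrg1 were kept, and those of the other 8 members were lost without any 1 of the 4 libraries with CRY (adjusted p between 0.0607 and 0.283). Every lost call kept its direction, and over the 3 comparisons the log2 fold change in the fits that lost a call was between 0.752 and 1.22 times the reported one.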

How the data were processed

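Total RNA of the 3 MEF lines was collected as the cells neared confluence, polyA-selected and sequenced as stranded paired-end libraries. The authors used STAR for mapping to mm10 and featureCounts for gene-level counting, as the submitters' processing notes and the study's methods state. The deposited tables hold raw counts for 27179 NCBI Gene identifiers, without normalization or filter, and these counts were used as deposited. The gene annotation, the strand setting and the treatment of reads with several matches are not given in the sources used here.

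Symbols came from the RefSeq table of GRCm38.p6, in which 726 tested genes had no entry, and transcript lengths from GENCODE. Genes passing edgeR's filterByExpr function (minimum count 10, minimum total 15) were fitted with edgeR 4.0.16 in R 4.3.3, using TMM factors, robust quasi-likelihood dispersions and cell line as the only term over the 6 libraries. Tests were two-sided, and each standard error is the absolute log2 ratio over the root of F. Each member with at least 60 counts in all was named, with every library's value where it was called. Context lists are given by counts and medians, with up to 4 genes named by the lowest p in either comparison with CPN-/-. Near-identical transcripts were searched with BLAST+ 2.17.0. The members and lists were chosen with earlier results of these data known. The alternatives were DESeq2's size factors, its Wald test (DESeq2 1.42.0), 2 other count filters, a replicate block, only the 4 libraries compared, a length trend removed by loess (span 0.5) for the 88.7% of tested genes with a length, chromosome medians removed, and each library left out. Counts of the tested genes were simulated for CPN-/- CRY1 against CPN-/-, with 200 genes changed by 1.5 on the log2 scale. Chromosome 15 was also shifted in CPN-/- CRY1, and a CPN-/- library was given a length trend. The test recovered 90% of the 200, with 6 false calls among the other genes off chromosome 15. In the data 3423 genes were called, so these figures are not the error rate of the reported fit. Totals ran from 25957409 to 36106949 counts per library, and precision is limited by the 2 libraries per line and, for members with few counts such as Loxl2, by the counts themselves.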

Additional observations from a re-analysis of the deposited data

Results flagged for a closer look

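The lines CPN-/- CRY1 and CPN-/- CRY2 differed by a direct test for 12 of the 29 members, while 16.3% of all tested genes were called. For each of the 12, every library of one line was above those of the other. Such separation is common with 2 libraries per line. Of all 14069 tested genes, 5187 had both CPN-/- CRY1 libraries below those of CPN-/- CRY2, and 5128 had them above. The log2 fold changes of CPN-/- CRY1 against CPN-/- CRY2 were 2.71 for Pdgfb, 1.68 for Adm, 1.60 for Loxl2 and 0.50 for Plod2, all higher in CPN-/- CRY1. They were −1.42 for Ddit4, −1.30 for Ndrg1, −0.80 for Car9, −0.70 for Vegfa, −0.67 for Lox, −0.49 for Bnip3, −0.47 for P4ha1 and −0.41 for Ak4, all lower in CPN-/- CRY1. For Adm, the libraries of CPN-/- lay at 31.4 and 37.0 CPM, near those of CPN-/- CRY2 at 29.1 and 29.8, while those of CPN-/- CRY1 were at 94.0 and 94.8. For Pdgfb, it was CPN-/- CRY2 that stood apart, at 1.87 and 1.89 CPM. Groups of 2 libraries are too small for a single library to be tested as standing apart from its group.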

How the results depend on the processing

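Of the called members, 11 of 21 in CPN-/- CRY1 against CPN-/-, 5 of 13 in CPN-/- CRY2 against CPN-/- and 4 of 12 in CPN-/- CRY1 against CPN-/- CRY2 kept their call in each of the 14 alternatives run. When 1 library was left out, the number of members called ranged from 11 to 26, from 5 to 20 and from 4 to 24 in these comparisons, a lone library being assumed to vary like the other lines, and the number of all tested genes called ranged from 663 to 8980, from 199 to 8046 and from 475 to 6897. With only the 4 libraries compared, 15, 9 and 24 members were called; the last of these fits leaves out the CPN-/- libraries, which differed most from each other. With the length trend removed the counts were 26, 19 and 18, and with chromosome medians removed 21, 12 and 11. With the replicate number as a block they were 20, 13 and 12, and the call of Kdm4b in CPN-/- CRY1 was lost. Removing the length trend added calls for Pdgfb, Kdm3a, Tfrc, Rbpj and Zfp395 in CPN-/- CRY1. In CPN-/- CRY2 it added Vegfa, Bnip3l, Lox, Kdm3a, Kdm4b and Kdm4c. In the direct comparison it added Stc2, Fam162a, Ero1l, Jmjd6, Tfrc and Rbpj. The share of all tested genes called is not given for each of these settings. A change in the member count therefore cannot be told from a change over all genes. Among called values, Mif in both lines and Jmjd6 in CPN-/- CRY1 moved by over 1.5 times, each with the length trend removed, which left them called. The replicate numbers were not shown to pair the samples, since the deviations of same-numbered libraries correlated at −0.08 (CPN-/- with CPN-/- CRY1), 0.14 (CPN-/- with CPN-/- CRY2) and −0.03 (CPN-/- CRY1 with CPN-/- CRY2).

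Log2 fold changes that turned sign were all uncalled in the reported fit, and the cause was not tested. Edn1 in CPN-/- CRY1 was at 0.0018 with DESeq2's size factors, 0.0035 without a filter, 0.0025 with the Wald test and 0.15 with the length trend removed, and between −0.21 and 0.19 with a library left out. With a library left out, Plod1 in CPN-/- CRY1 ranged from −0.036 to 0.20, Car9 in CPN-/- CRY2 from −0.030 to 0.16 and Rbpj in CPN-/- CRY2 from −0.18 to 0.12. With chromosome medians removed, Rbpj in CPN-/- CRY2 was at 0.035 and Kdm3a in CPN-/- CRY1 against CPN-/- CRY2 at 0.041. With the length trend removed, Adm in CPN-/- CRY2 was at 0.0016.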
